A study of Homo sapiens with 18 samples.

Results

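The 3D cell-printed tissue (DP-3) was compared with the unprinted 3D cells (D-3), both after 14 days of culture. The comparison used 6 of the 18 libraries of the series, chosen by group label alone: 3 of DP-3 and 3 of D-3. Both groups were the human osteosarcoma (OS) line labelled Saos-2, wild type by its label, cultured in vitro in the same complete medium, DMEM-F12 with fetal bovine serum. For D-3, the cells were suspended in Matrigel and set down as drops of 50 µl. For DP-3, the cells were suspended in a bioink of methacrylated gelatin, alginate and a blue light initiator, extruded as a three-dimensional grid, and crosslinked with blue light and calcium chloride. No antitumour agent was given to either group. The gel, the extrusion, the light, the calcium and the shape of the construct changed together, so their parts cannot be told apart here. The other 12 libraries, 3 each of 2D cells (D-2), isolated tissue (IT), fresh isolated tumor tissue from mice (FIT) and DP-3 on day 1, entered no main test and serve only to place the levels of single genes.

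Matrigel is a basement membrane extract rich in laminin, collagen IV and growth factors. Methacrylated gelatin keeps the cell-binding and protease-sensitive motifs of collagen, while alginate is a polysaccharide that mammalian cells do not bind directly. Cells in gels may change programs that read nutrient and protein stress, such as the one run by the transcription factor ATF4, programs that read cytokines through NF-kB, and programs that read tension through YAP and TEAD.

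Poly(A) RNA of the cells was sequenced in pairs of 150-base reads, and for each of 50119 genes the processed data hold an estimated count and an FPKM, the fragments of a gene scaled by its length and the library's total. The estimated counts summed to between 60226010 and 67231699 per library in D-3 and between 60000387 and 77174403 in DP-3. Each group had 3 libraries, and nothing in the labels says whether they came from separate cultures, so the p-values measure the spread between these libraries only. A count of 12, about 3 read pairs, was taken as the limit of detection, between 0.155 and 0.2 CPM in these libraries. It covers counting error only.

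The label of the line was checked against bone cell genes, since Saos-2 is known for high alkaline phosphatase. ALPL, which encodes that phosphatase, was at most 0.0947 FPKM in D-3 and at most 0.148 FPKM in DP-3. The osteoblast regulator SP7 reached at most 0.0949 FPKM, and the bone sialoprotein gene IBSP was listed at 0 in all 6 libraries. The cells are therefore named by their label here, and these levels go against what is known of that line. Lists of markers of other cell types were expressed in part, in ranges over the libraries of a group. Fibroblast markers summed to 60.8 to 74.6 FPKM in D-3 and 74.1 to 98.6 FPKM in DP-3, with PDGFRA, THY1 and PDGFRB at a mean of at least 1 FPKM. Macrophage and leukocyte markers summed to 59.8 to 85.9 FPKM in D-3 and 47.8 to 117 FPKM in DP-3, with CD68 and CSF1R at that level, and TYROBP was listed at 0 in all 6. Keratinocyte and epithelial markers summed to 14.8 to 19.3 FPKM in D-3 and 18.1 to 20.8 FPKM in DP-3, with KRT8 and KRT18 at that level, and KRT14 was listed at 0. Chondrocyte markers, nearly all SOX9, summed to 11.8 to 14.2 FPKM in D-3 and 19.2 to 26.6 FPKM in DP-3. Endothelial markers, with PECAM1 and ESAM at that level, summed to 1.3 to 2.71 FPKM in D-3 and 3.06 to 3.44 FPKM in DP-3. Adipocyte markers summed to 2.55 to 3.61 FPKM in D-3 and 0.876 to 8.71 FPKM in DP-3, and skeletal muscle markers to 0.738 to 1.77 FPKM and 0.301 to 0.407 FPKM, with MYOG listed at 0. Red blood cell markers summed to at most 0.232 FPKM in D-3 and to 0 in DP-3. The part of such cells in the results was not tested. The macrophage marker CD163 was at 0.727, 0.392 and 0.291 FPKM in D-3 and 0.0224, 0 and 0.0273 FPKM in DP-3, at or below the detection limit in every DP-3 library and at least 13.3-fold lower there, and its call was lost without replicate 1 or 3 of either group (adjusted p of up to 0.0803). In bulk RNA, fewer cells of a type and less RNA per cell cannot be told apart.

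A pair of libraries stood apart from their groups. On log2(FPKM + 0.1), D-3 replicate 2 correlated with DP-3 at 0.932 to 0.949, about as closely as with the other D-3 replicates (0.943 and 0.948), whereas D-3 replicates 1 and 3 correlated with DP-3 at 0.901 to 0.923. DP-3 replicate 3 had 9.22% of its counts on the mitochondrial genome, against 4.34% in each of the other DP-3 libraries and 2.83% to 4.05% in D-3. The genes FP236383 and FP671120, which hold ribosomal RNA-like sequence, took 0.385% to 1.22% of the counts in DP-3 and 0.152% to 0.42% in D-3. Fewer genes reached an FPKM of 0.1 in DP-3 (18664 to 19249) than in D-3 (21384 to 22322).

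DP-3 had more downregulated than upregulated genes against D-3. Of 20682 genes tested, 1887 were DEGs, 9.12% of those tested. The upregulated DEGs, higher in DP-3 than in D-3, numbered 409 (1.98%), and the downregulated DEGs, lower in DP-3, numbered 1478 (7.15%). For a DEG, the fold change was 2 or more and the Benjamini-Hochberg adjusted p of edgeR's quasi-likelihood test was below 0.05. Every adjusted p here is from that test, each log2 fold change is DP-3 over D-3, its ± is the standard error (SE) of the fit, and the FPKM are listed in the order of replicates 1, 2 and 3.

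By FPKM, all DP-3 libraries lay above all D-3 libraries in 1965 of the 20682 genes tested and below them in 6244. The naming rule for DEGs required no overlap, so lack of overlap adds no support to the genes it named. Among genes with a mean of at least 1 FPKM in either group, 360 were upregulated and 859 downregulated of 13142 tested. Another 619 downregulated DEGs stayed under 1 FPKM in both groups, and 322 of all downregulated DEGs were at or below the detection limit in every DP-3 library. Genes not listed as protein coding were 35.5% of those tested, 43.7% of the downregulated DEGs and 10.3% of the upregulated DEGs. The downregulated share of the DEGs was 78.3%, and 91.4% by limma on log2(FPKM + 0.1) and 88.4% by limma on log2(FPKM + 1). The median log2 fold change of all genes tested was -0.05 with the TMM scaling of the counts and -0.24 on log2(FPKM + 0.1), so single FPKM of DP-3 read lower than the tested fold change.

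The number of DEGs depended on single libraries. Leaving out D-3 replicate 1 or 3 gave 658 and 546 DEGs, and leaving out DP-3 replicate 1, 2 or 3 gave 856, 1142 and 1041. Leaving out D-3 replicate 2, the one closest to DP-3, gave 2594, with 819 upregulated and 1775 downregulated DEGs. Among genes of at least 1 FPKM, the median log2 fold change rose with transcript length, from -0.3 at up to 1000 bases to 0.22 above 8000 bases. The part of transcript length, mitochondrial share and ribosomal RNA-like reads in these counts was not tested.

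**Figure D1:**
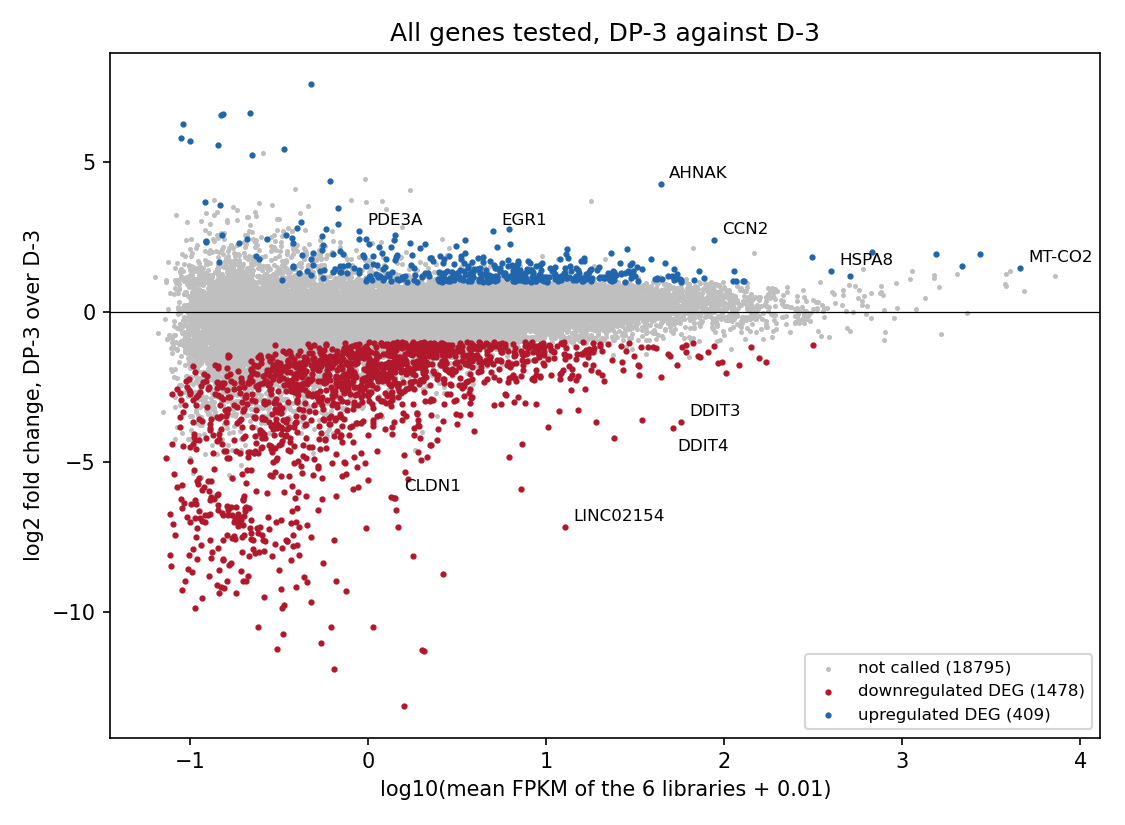
Log2 fold change of DP-3 over D-3 (y axis) against log10 of the mean FPKM of the 6 libraries + 0.01 (x axis), 1 point per gene tested. The 1478 downregulated DEGs (red) reach far below zero among genes of low FPKM, the 409 upregulated DEGs (blue) lie mostly between 1 and 3, and grey points are the 18795 genes not called.

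Gene lists were compared by their counts of DEGs and their medians. Each count stands beside the shares over all genes tested, 1.98% upregulated and 7.15% downregulated. The lists with the lowest medians were the inflammatory and NF-kB genes (-1.2), the ATF4 targets (-0.96), MHC class I presentation (-0.85) and the hypoxia response (-0.58). Those with the highest were the mitochondrial genome (1.19), heat shock genes (1.06), the osteoblast and bone matrix genes and the cell cycle genes (0.85 each). In these 8 lists, the DEGs of the first 4 were lower in DP-3, with IL33 as the exception, and those of the last 4 were higher in DP-3, with PHEX as the exception. The order of the medians rested in part on single libraries. Without DP-3 replicate 3, the library with 9.22% mitochondrial counts, the median of the mitochondrial genome was 0.48, below those of heat shock genes (0.85) and the cell cycle (0.87). Without D-3 replicate 1, that of the hypoxia response was -0.29, nearer to zero than that of laminins and basement membrane genes (-0.47).

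**Figure D2:**
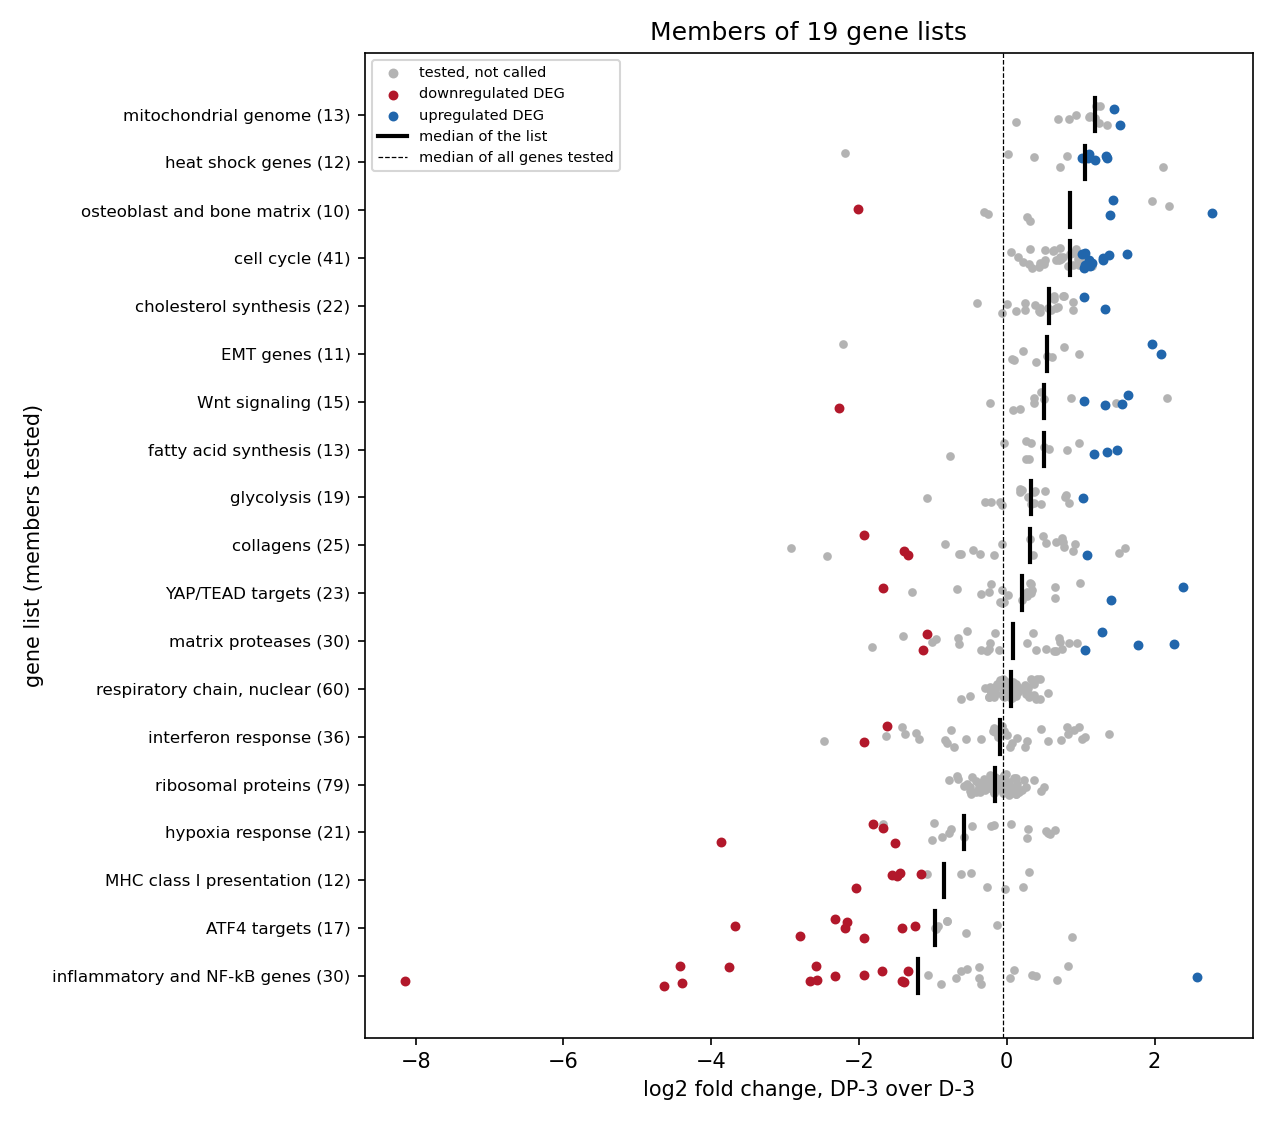
Log2 fold change of DP-3 over D-3 (x axis) of the tested members of 19 gene lists (y axis, number tested in brackets). Red and blue points are downregulated and upregulated DEGs, short black bars are list medians and the dashed line is the median of all genes tested, -0.05; ATF4 targets lie almost entirely to its left and cell cycle genes entirely to its right.

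ATF4 is a transcription factor that is translated when amino acids run short or unfolded protein accumulates, and its targets take up and make amino acids or promote cell death. Of 17 ATF4 targets, all tested, 8 were downregulated in DP-3, none was upregulated, and 16 had a fold change below zero. Of the 20682 genes tested, 10910 had a fold change below zero. DDIT3, the CHOP factor linked to cell death under stress, was at 145, 64.6 and 112 FPKM in D-3 and 7.29, 8.36 and 5.97 FPKM in DP-3 (log2 fold change -3.67 ± 0.3, adjusted p = 0.00314). TRIB3, a pseudokinase induced by CHOP, was at 46.6, 30.6 and 31 FPKM in D-3 and 4.89, 6.63 and 6.96 FPKM in DP-3 (log2 fold change -2.32 ± 0.23, adjusted p = 0.00402). In both genes the lowest D-3 library was more than 4 times the highest DP-3 library.

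ATF3, a factor of the same family, was at 7.85, 5.61 and 4.97 FPKM in D-3 and 0.836, 0.874 and 0.565 FPKM in DP-3 (log2 fold change -2.79 ± 0.26, adjusted p = 0.00347). Asparagine synthetase ASNS was at 25.3, 23.8 and 26.9 FPKM in D-3 and 3.37, 5.46 and 5.73 FPKM in DP-3 (log2 fold change -2.16 ± 0.23, adjusted p = 0.00404). SESN2, which restrains mTORC1 when leucine is low, was at 30, 29.6 and 27.4 FPKM in D-3 and 5.0, 7.98 and 6.54 FPKM in DP-3 (log2 fold change -1.94 ± 0.19, adjusted p = 0.00397). None of these genes overlapped between the groups, and for ATF3 lack of overlap was a condition of naming it. Smaller decreases were found for the secreted hormone STC2 (log2 fold change -1.42, adjusted p = 0.00547) and the cystine transporter SLC7A11 (-1.25, adjusted p = 0.00793), which was not called in a single fit of the 15 day 14 libraries (adjusted p = 0.0607).

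ATF4 itself was at 157, 24.9 and 40.9 FPKM in D-3 and 12.4, 14.8 and 14.6 FPKM in DP-3 (log2 fold change -2.19 ± 0.6, adjusted p = 0.0452), with replicate 1 of D-3 far above the other libraries. It lost its call without D-3 replicate 1 or 3 or any DP-3 library, with an adjusted p of up to 0.121. The other 7 DEGs of the list kept their call whichever library was left out, and the list had 8 DEGs without D-3 replicate 2. The serine synthesis genes PHGDH and PSAT1 had log2 fold changes of -0.96 and -0.95, short of the fold change of 2 although their adjusted p were 0.00989 and 0.0225. PSPH of the same pathway had 0.89, the one value above zero.

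Genes outside the list moved in the same direction, chosen after their values were seen. CTH, which makes cysteine from cystathionine, was at 14.6, 14.5 and 13.2 FPKM in D-3 and 1.67, 3.71 and 2.55 FPKM in DP-3 (log2 fold change -2.19 ± 0.28, adjusted p = 0.00646). CEBPG, a partner of ATF4 on DNA, was at 38.4, 23.4 and 30.3 FPKM in D-3 and 9.81, 11.5 and 10.3 FPKM in DP-3 (log2 fold change -1.32 ± 0.19, adjusted p = 0.00892). The stress-induced secreted factors GDF15 and INHBE, both in the TGF-beta and activin list, were also lower. GDF15 was at 66, 20.3 and 52.2 FPKM in D-3 and 1.57, 1.44 and 3.38 FPKM in DP-3 (log2 fold change -4.2 ± 0.53, adjusted p = 0.00646). INHBE was at 26, 22.7 and 26.1 FPKM in D-3 and 3.01, 6.07 and 4.26 FPKM in DP-3 (log2 fold change -2.27 ± 0.25, adjusted p = 0.00451). The unfolded protein response list, which holds chaperones of the endoplasmic reticulum, had 1 DEG of 13, DNAJB9, and a median of 0.1. Among all genes tested, 9.12% were DEGs. DNAJB9 had a log2 fold change of -1.05 (adjusted p = 0.0394) and lost its call without D-3 replicate 2 (-0.8, adjusted p = 0.0663), and without D-3 replicate 1 or any DP-3 library (adjusted p of up to 0.114). Without D-3 replicate 2 the list had 1 upregulated DEG instead, and its median was 0.39.

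**Figure D3:**
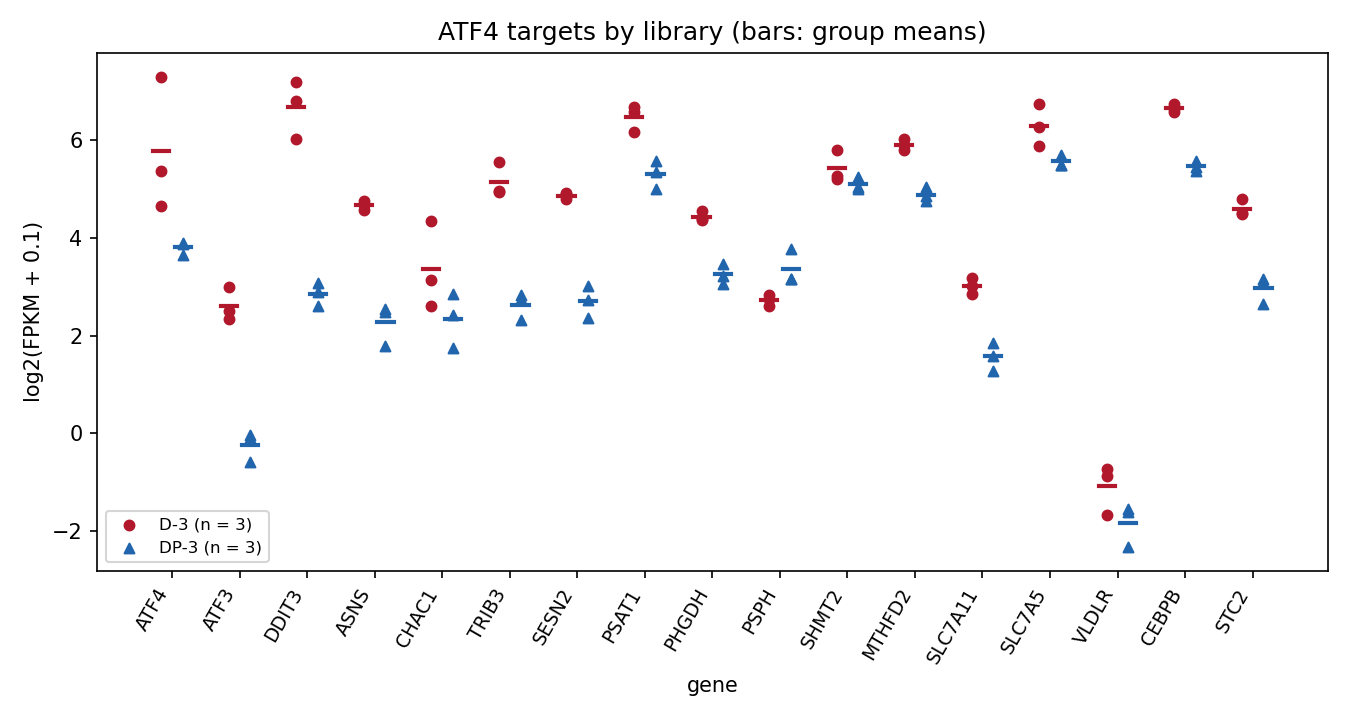
Level of the 17 ATF4 targets as log2(FPKM + 0.1) (y axis), with 1 point per library, D-3 as red circles and DP-3 as blue triangles, n = 3 each, and bars at the group means. In 13 of the 17 targets, DDIT3, ASNS, TRIB3, SESN2, ATF3 and STC2 among them, all of DP-3 lies below all of D-3. The same holds for 6244 of the 20682 genes tested. For PSPH the order is turned.

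The sequences before the starts of these genes are shown for the letters of the composite element that ATF4 binds with a C/EBP partner, TGATGNAA, searched on both strands. Starts were taken from RefSeq on GRCh38.p14, and the 250 bases before each were read on the strand of the gene. Here and below, a gene with several starts was counted if the letters stood before any of them. Only the first such region is printed. Of the genes printed, ATF3, ASNS, IL32 and HSP90AA1 had 2 starts each. Of the 17 targets, 14 matched an entry, and PSPH, SHMT2 and SLC7A11 did not. ATF3, ASNS and CHAC1 held the letters, 3 of 14, against 3.89% of the 27305 genes in the table. In the comparison at hand, the letters stood before 2.11% of the upregulated and 5.31% of the downregulated DEGs with an entry, and before 2.56% of all genes tested. The DEGs among them are printed 5′ to 3′ with the match in capitals, chr1:212565157-212565406 (plus strand) for ATF3 and chr7:97872409-97872658 (minus strand) for ASNS.
ATF3: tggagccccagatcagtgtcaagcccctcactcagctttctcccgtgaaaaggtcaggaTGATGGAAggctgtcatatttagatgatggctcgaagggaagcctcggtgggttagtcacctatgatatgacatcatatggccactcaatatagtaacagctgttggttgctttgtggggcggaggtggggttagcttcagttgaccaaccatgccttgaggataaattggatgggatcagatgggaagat
ASNS: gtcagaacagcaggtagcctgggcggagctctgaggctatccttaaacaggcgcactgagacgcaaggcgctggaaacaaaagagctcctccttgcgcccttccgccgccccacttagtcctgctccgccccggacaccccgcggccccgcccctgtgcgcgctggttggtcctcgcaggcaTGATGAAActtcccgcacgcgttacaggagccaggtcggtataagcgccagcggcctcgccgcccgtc
A match is a description of the letters and not a bound site.

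NF-kB factors drive cytokines, acute phase proteins and their own subunits. Of 34 inflammatory and NF-kB genes listed, 30 were tested, 14 were downregulated and 1, IL33, was upregulated. CXCL1 was not analysed here. The median of -1.2 was the same with LCN2 placed at its bound. Among secreted acute phase proteins, SAA1 was at 13.3, 8.86 and 19.8 FPKM in D-3 and 0.445, 0.895 and 0.332 FPKM in DP-3 (log2 fold change -4.4 ± 0.49, adjusted p = 0.0047). SAA2, a near-identical paralog whose reads may be split with SAA1, was at 4.5, 1.99 and 6.48 FPKM in D-3 and 0.112, 0.276 and 0.116 FPKM in DP-3. The siderophore-binding protein LCN2 was at 3.23, 3.23 and 4.11 FPKM in D-3 and 0.0272, 0 and 0 FPKM in DP-3, at or below the detection limit in every DP-3 library and at least 27.4-fold lower there.

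Cytokines and complement followed. IL6, the interleukin that induces acute phase proteins, was at 7.79, 10.1 and 13.3 FPKM in D-3 and 1.67, 1.26 and 2.32 FPKM in DP-3 (log2 fold change -2.33 ± 0.32, adjusted p = 0.00793). IL32 was at 6.55, 7.15 and 5.84 FPKM in D-3 and 1.04, 0.88 and 0.816 FPKM in DP-3 (log2 fold change -2.57 ± 0.21, adjusted p = 0.00314). Complement factor B, CFB, was at 28.2, 23.5 and 35.3 FPKM in D-3 and 3.03, 5.69 and 3.75 FPKM in DP-3 (log2 fold change -2.58 ± 0.26, adjusted p = 0.00404). In each of these the highest DP-3 library stayed below the lowest D-3 library by more than 2-fold.

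The chemokine CCL20 was at 0.588, 1.33 and 4.53 FPKM in D-3 and 0.0392, 0.102 and 0.065 FPKM in DP-3 (log2 fold change -4.63 ± 0.84, adjusted p = 0.0148), and lost its call without DP-3 replicate 1 or 3 (adjusted p of up to 0.0529). CXCL8, the neutrophil chemokine, was at 11.1, 18.1 and 28 FPKM in D-3 and 13.2, 11.1 and 9.78 FPKM in DP-3, with overlapping groups (log2 fold change -0.53 ± 0.31, adjusted p = 0.272). Of the NF-kB subunits, NFKB2 was at 30, 20 and 28.2 FPKM in D-3 and 8.31, 8.74 and 8.6 FPKM in DP-3 (log2 fold change -1.38 ± 0.18, adjusted p = 0.00666). RELB was at 13, 8.8 and 11.4 FPKM in D-3 and 3.93, 3.53 and 3.19 FPKM in DP-3 (log2 fold change -1.42 ± 0.19, adjusted p = 0.00765). The inhibitor genes NFKBIA and TNFAIP3, by contrast, had log2 fold changes of -0.38 and -0.34 (adjusted p = 0.181 and 0.131) and were not called. ICAM1, an adhesion receptor for leukocytes, had -2.66 (adjusted p = 0.0103), and the mitochondrial dismutase SOD2 -1.93 (adjusted p = 0.00745). ICAM1 was not called by limma on log2(FPKM + 1), where its log2 difference was below 1 in size, or in a single fit of the 15 day 14 libraries. IL33, an alarmin held in the nucleus, was at 0.448, 0.498 and 0.438 FPKM in D-3 and 0.826, 1.93 and 4.21 FPKM in DP-3 (log2 fold change 2.57 ± 0.57, adjusted p = 0.0251), with most of the increase in DP-3 replicates 2 and 3.

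Calls were lost for IL1B, BIRC3, C3 and IL33, besides CCL20, when 1 library was left out. IL33 was not called without D-3 replicate 1 or 3 or DP-3 replicate 2 or 3 (adjusted p of up to 0.0928). IL1B and BIRC3 were not called without D-3 replicate 1 or 3 or any DP-3 library (up to 0.122 and 0.0715). C3 was not called without D-3 replicate 3 or any DP-3 library (up to 0.0911). The number of downregulated DEGs of the list was between 10 and 14 over these 6 fits, and 14 without D-3 replicate 2.

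The letters of a core NF-kB site, GGGA, any base and TTTCC on either strand, stood within 250 bases before the start in 9 of the 24 members with a RefSeq entry, against 0.645% of the 27305 genes. They stood before 0.352% of the upregulated, 1.22% of the downregulated and 0.733% of all genes tested that had an entry. The 9 were IL6, CXCL2, CXCL3, CXCL5, CXCL6, IL32, TNFAIP3, NFKBIA and NFKB2, of which 3 were DEGs. CCL2, CCL5, CSF1, CSF3, LIF, RELB, C3, SAA1 and SAA2 had no entry. The pair of DEGs with the largest change is shown, with the match in capitals, chr16:3065153-3065402 (plus strand) for IL32 and chr7:22726950-22727199 (plus strand) for IL6.
IL32: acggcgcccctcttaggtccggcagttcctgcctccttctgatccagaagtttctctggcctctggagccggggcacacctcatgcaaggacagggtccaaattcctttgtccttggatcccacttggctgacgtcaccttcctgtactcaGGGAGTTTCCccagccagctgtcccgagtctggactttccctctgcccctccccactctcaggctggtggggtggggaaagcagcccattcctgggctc
IL6: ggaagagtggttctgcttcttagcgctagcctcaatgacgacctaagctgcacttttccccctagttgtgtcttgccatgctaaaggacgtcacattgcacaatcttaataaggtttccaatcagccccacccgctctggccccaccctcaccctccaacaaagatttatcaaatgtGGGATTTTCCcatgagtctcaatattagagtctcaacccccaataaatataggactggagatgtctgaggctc
The other 6 holders of the letters, NFKBIA, TNFAIP3 and the CXCL genes, were not called.

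MHC class I molecules show peptides from the cytosol to T cells. Of 12 genes of class I presentation, 5 were downregulated and none upregulated. HLA-B was at 200.2, 166 and 139 FPKM in D-3 and 36.2, 47.7 and 22.7 FPKM in DP-3 (log2 fold change -2.04 ± 0.26, adjusted p = 0.00646). HLA-E, the ligand of an inhibitory receptor of natural killer cells, was at 132, 91.3 and 102 FPKM in D-3 and 38.3, 35.9 and 26.2 FPKM in DP-3 (log2 fold change -1.48 ± 0.19, adjusted p = 0.00673). HLA-C and the immunoproteasome subunit PSMB9 had log2 fold changes of -1.16 and -1.44. All 5 kept their call whichever library was left out.

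The other 7 components were not called. B2M, the light chain that pairs with each of these, had a log2 fold change of -0.26 (adjusted p = 0.3), and the transporter genes TAP1 and TAP2 had -0.62 and 0.22. The HLA genes are close paralogs, so reads shared among them may have been split. The class II genes HLA-DPA1 and HLA-DRB1, chosen after their values were seen, were low in both groups. HLA-DPA1 was at 1.86, 1.52 and 1.41 FPKM in D-3 and 0.0895, 0.115 and 0.10 FPKM in DP-3 (log2 fold change -3.71 ± 0.29, adjusted p = 0.00314). HLA-DRB1 was at 2.39, 1.75 and 0.98 FPKM in D-3 and 0, 0.0663 and 0 FPKM in DP-3, at or below the detection limit in every DP-3 library and at least 10.2-fold lower there, and it was not called without D-3 replicate 1 (adjusted p = 0.0565).

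Of 36 interferon-stimulated genes tested, 2 were downregulated, none was upregulated, and the median was -0.1. These counts were not above the shares over all genes tested, 7.15% downregulated and 1.98% upregulated. IRF9, the DNA-binding subunit of an interferon-activated complex, was at 5.82, 5.82 and 4.17 FPKM in D-3 and 1.09, 2.09 and 1.2 FPKM in DP-3 (log2 fold change -1.63 ± 0.29, adjusted p = 0.0139), and lost its call without D-3 replicate 1 (adjusted p = 0.0508). XAF1 had a log2 fold change of -1.94 (adjusted p = 0.0437) and lost its call without any 1 of the 6 libraries (up to 0.118). Without D-3 replicate 1 the list had no DEG. Without D-3 replicate 2, 7 members were upregulated, 2 were downregulated and the median was 0.2. By DESeq2, 3 were upregulated and 7 downregulated.

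**Figure D4:**
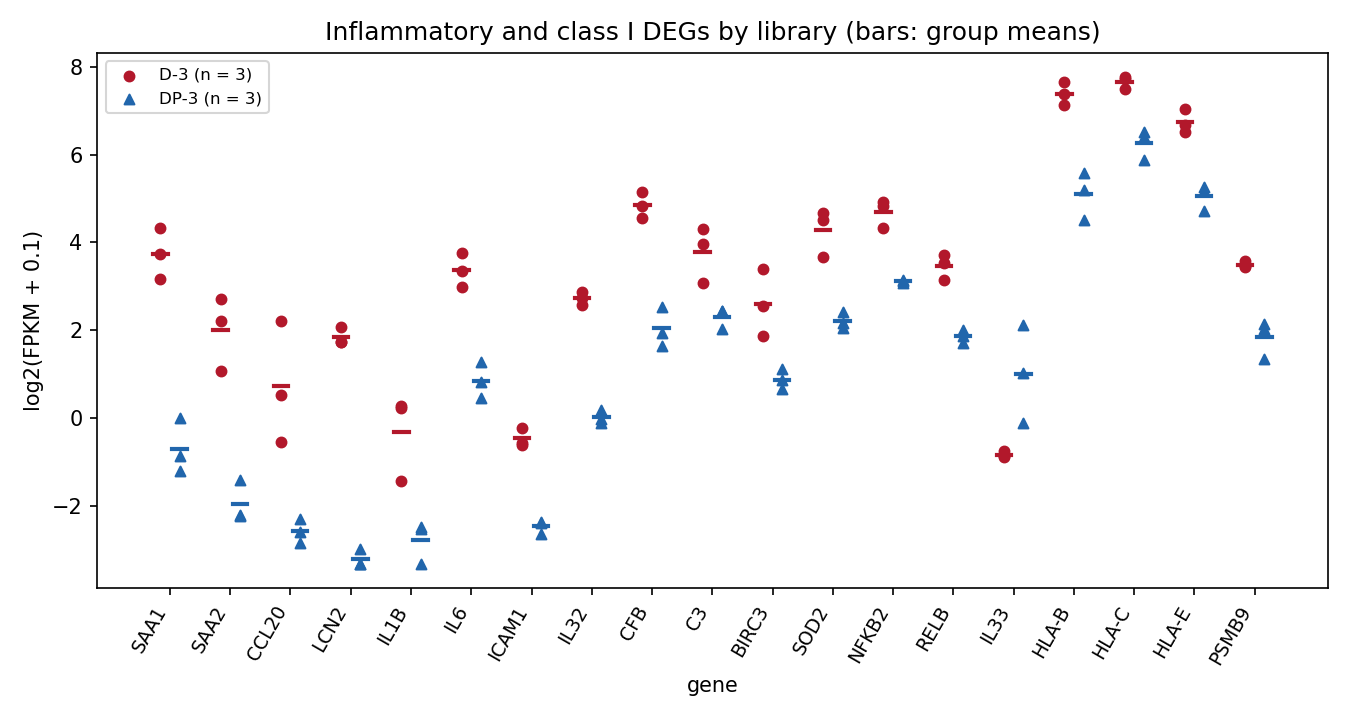
Level of 19 inflammatory and class I genes as log2(FPKM + 0.1) (y axis), with 1 point per library, D-3 as red circles and DP-3 as blue triangles, n = 3 each, and bars at the group means. IL33 is the one gene shown that is higher in DP-3, and HLA-B, HLA-C and HLA-E are the most abundant.

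The hypoxia response list, genes that HIF factors induce when oxygen is low, had 4 downregulated DEGs of 21 tested and no upregulated one. DDIT4, an mTORC1 inhibitor that ATF4 also induces, was at 95.2, 55.4 and 140.2 FPKM in D-3 and 6.12, 6.2 and 4.81 FPKM in DP-3 (log2 fold change -3.87 ± 0.33, adjusted p = 0.00316). VEGFA, the angiogenic growth factor, was at 27.4, 26.4 and 25.2 FPKM in D-3 and 8.16, 8.63 and 7.09 FPKM in DP-3 (log2 fold change -1.51 ± 0.13, adjusted p = 0.00316). NDRG1 was at 53.7, 24.5 and 48.3 FPKM in D-3 and 11.7, 11.8 and 10.6 FPKM in DP-3 (log2 fold change -1.67 ± 0.27, adjusted p = 0.0116). All DP-3 libraries lay below all D-3 libraries in these 3 genes, and for DDIT4 and NDRG1 that was a condition of naming them.

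The glucose transporter SLC2A3 had a log2 fold change of -1.81 (adjusted p = 0.0146) and lost its call without DP-3 replicate 1 or 3 (up to 0.0524). The list had 7 downregulated DEGs without D-3 replicate 2 and 3 without DP-3 replicate 3, and its median moved from -0.58 to -0.29 without D-3 replicate 1. TXNIP, which responds to glucose and was chosen after its values were seen, was at 32.3, 14.2 and 36.8 FPKM in D-3 and 2.53, 3.02 and 1.81 FPKM in DP-3 (log2 fold change -3.29 ± 0.36, adjusted p = 0.00454). In the glycolysis list of 19, with a median of 0.33, the one DEG was PGAM1, higher in DP-3 (log2 fold change 1.03 ± 0.2, adjusted p = 0.0176). PGAM1 lost its call without D-3 replicate 1 or 3 or DP-3 replicate 1 or 2 (up to 0.0751).

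NRF2 switches on genes against oxidants. Of 23 NRF2 targets, 3 were downregulated, none was upregulated and the median was 0.05. ABCC3, an exporter of conjugates, was at 1.76, 1.29 and 1.92 FPKM in D-3 and 0.164, 0.143 and 0.219 FPKM in DP-3 (log2 fold change -3.0 ± 0.3, adjusted p = 0.00397). OSGIN1 was at 13.2, 8.88 and 7.91 FPKM in D-3 and 2.73, 2.27 and 2.27 FPKM in DP-3 (log2 fold change -1.83 ± 0.22, adjusted p = 0.00565). The third was SLC7A11, given above. SLC3A2, the heavy chain that pairs with SLC7A11 and the one DEG of 13 genes of iron and ferroptosis, was at 101, 102 and 69 FPKM in D-3 and 33, 30.7 and 28 FPKM in DP-3 (log2 fold change -1.35 ± 0.18, adjusted p = 0.0078). Of all genes tested, 9.12% were DEGs. The iron and ferroptosis list had 3 downregulated DEGs by limma at either pseudocount and 2 without D-3 replicate 2. It had 1 upregulated and 2 downregulated DEGs without replicate 3 of either group, and 1 of each without DP-3 replicate 2. CYP1A1, the classical target of the aryl hydrocarbon receptor, was at 1.22, 2.32 and 1.38 FPKM in D-3 and 0.18, 0.269 and 0.163 FPKM in DP-3 (log2 fold change -2.78 ± 0.39, adjusted p = 0.00835). TDO2, which starts tryptophan breakdown, was at 1.43, 2.45 and 1.82 FPKM in D-3 and 3.04, 4.22 and 7.61 FPKM in DP-3 (log2 fold change 1.62 ± 0.38, adjusted p = 0.029) and lost its call without D-3 replicate 1 or 3 or DP-3 replicate 2 or 3 (up to 0.102).

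The largest decreases, among genes that met the naming rule, were in transcripts of low abundance in DP-3. CLDN1, SPINK1 and KLHDC7B were under 0.1 FPKM in every DP-3 library. They passed the filter through D-3 alone, so the size of their folds is uncertain. LINC02154, a long noncoding RNA at chrX:13266048-13303418 of GRCh38 (minus strand), was at 33.9, 6.52 and 35.7 FPKM in D-3 and 0.222, 0.143 and 0.0679 FPKM in DP-3 (log2 fold change -7.19 ± 0.76, adjusted p = 0.00404). CLDN1, a tight junction protein of epithelia, was at 4.44, 0.717 and 3.2 FPKM in D-3 and 0.0114, 0.0225 and 0.0583 FPKM in DP-3 (log2 fold change -6.19 ± 0.86, adjusted p = 0.00794). In both genes D-3 replicate 2 was well below the other D-3 libraries and still above all of DP-3.

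The protease inhibitor SPINK1 was at 4.78, 2.38 and 2.6 FPKM in D-3 and 0.0291, 0.0826 and 0.0357 FPKM in DP-3 (log2 fold change -5.58 ± 0.55, adjusted p = 0.00397). ESRP1, an epithelial splicing factor, was at 3.05, 2.83 and 3.54 FPKM in D-3 and 0.0176, 0.121 and 0.0542 FPKM in DP-3 (log2 fold change -5.33 ± 0.59, adjusted p = 0.00454). KLHDC7B was at 2.48, 1.24 and 2.11 FPKM in D-3 and 0.0593, 0.0318 and 0.00505 FPKM in DP-3 (log2 fold change -5.62 ± 0.68, adjusted p = 0.00565). All 5 genes kept their call whichever library was left out. Of the epithelial markers, CDH1 reached at most 0.158 FPKM in D-3 and 0.0423 FPKM in DP-3. KRT8 was at 5.3, 4.3 and 6.53 FPKM in D-3 and 2.2, 3.16 and 2.98 FPKM in DP-3 (log2 fold change -0.73 ± 0.22, adjusted p = 0.0574), and KRT18 was at 9.26, 14.6 and 9.76 FPKM in D-3 and 15.7, 14.7 and 17.7 FPKM in DP-3 (log2 fold change 0.74 ± 0.21, adjusted p = 0.0527). Neither was called, and their fold changes had opposite signs.

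MIR22 was at 13.2, 19.6 and 9.81 FPKM in D-3 and 0.148, 0.0954 and 0.127 FPKM in DP-3, at or below the detection limit in DP-3 and at least 5.89-fold lower there. It lies inside its host MIR22HG, which was at 2.82, 7.04 and 2.33 FPKM in D-3 and 3.02, 3.74 and 1.57 FPKM in DP-3 and was not called (log2 fold change -0.35 ± 0.46, adjusted p = 0.644), so how reads were shared between both annotations bears on this value. The readthrough gene ISY1-RAB43 was at 1.89, 2.52 and 5.02 FPKM in D-3 and listed at 0 in DP-3, but shares its exons with ISY1 and RAB43, and is uncertain for the same reason.

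PSAP and KRT81 were among the 4 downregulated DEGs with no overlap and the largest decrease in mean FPKM. PSAP, the precursor of lysosomal activators, was at 500.2, 389 and 463 FPKM in D-3 and 189, 210.3 and 143 FPKM in DP-3 (log2 fold change -1.1 ± 0.18, adjusted p = 0.0116). KRT81, a hair keratin that overlaps KRT86 on the opposite strand, was at 179, 134 and 267 FPKM in D-3 and 69.2, 56 and 21.3 FPKM in DP-3 (log2 fold change -1.79 ± 0.41, adjusted p = 0.0277), and lost its call without D-3 replicate 1 or 3 or DP-3 replicate 2 (up to 0.0949). DDIT3 likewise overlaps the ends of MARS1 and MBD6 on the opposite strand. Whether strand was used in counting is not given in the sources used here.

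Among genes higher in DP-3 were those of the cell cycle. All 41 members of the list were tested, 11 were upregulated and none was downregulated. All 41 had a fold change above zero, against 9772 of the 20682 genes tested. FOXM1, the factor that drives mitotic genes, was at 16.2, 16.8 and 16.8 FPKM in D-3 and 48.8, 43 and 40.9 FPKM in DP-3 (log2 fold change 1.63 ± 0.14, adjusted p = 0.00314). BIRC5, or survivin, was at 8.12, 13.8 and 10.5 FPKM in D-3 and 22, 27.6 and 23.2 FPKM in DP-3 (log2 fold change 1.38 ± 0.21, adjusted p = 0.0104). PLK1, a mitotic kinase, was at 14.1, 20.1 and 19.4 FPKM in D-3 and 34.2, 35.7 and 43 FPKM in DP-3 (log2 fold change 1.3 ± 0.2, adjusted p = 0.01). Each of these 3 kept its call whichever library was left out, and lack of overlap was a condition of naming them.

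The other 8 upregulated members ranged from 1.03 in AURKA, the spindle kinase, to 1.3 in CENPE, a centromere motor, and included CCNB1, CCNE1, KIF20A, MCM5, MCM6 and HMMR. Each lost its call without at least 1 library. The list had 4, 17 and 11 DEGs when D-3 replicate 1, 2 or 3 was left out, and 6, 7 and 6 when DP-3 replicate 1, 2 or 3 was. By limma on log2(FPKM + 0.1) it had 4. On either strand, the letters TTTGAA, the cell cycle homology region, stood before the start of 14 of 33 members with an entry, among them PLK1 and HMMR, and of 16.1% of the 27305 genes. Members without an entry were CCNE2, AURKA, TPX2, BIRC5, MCM4, MCM5, FOXM1 and UBE2C. The region before PLK1, chr16:23678639-23678888 (plus strand), is shown with the match in capitals.
PLK1: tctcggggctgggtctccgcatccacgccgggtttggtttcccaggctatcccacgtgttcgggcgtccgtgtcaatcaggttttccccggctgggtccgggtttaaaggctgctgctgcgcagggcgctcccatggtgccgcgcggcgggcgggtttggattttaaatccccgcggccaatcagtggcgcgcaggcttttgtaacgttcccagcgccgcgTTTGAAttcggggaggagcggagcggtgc
The letters stood before 21.8% of the upregulated DEGs with an entry, 11.6% of the downregulated DEGs and 12.2% of all genes tested.

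Heat shock genes encode chaperones that HSF1 induces when proteins unfold in the cytosol. Of 12, 6 were upregulated and none downregulated. HSPA8, the constitutive HSP70, was at 222, 246 and 278 FPKM in D-3 and 583, 584 and 467 FPKM in DP-3 (log2 fold change 1.35 ± 0.17, adjusted p = 0.00645). HSP90AA1 was at 274, 335 and 419.5 FPKM in D-3 and 726, 691 and 613 FPKM in DP-3 (log2 fold change 1.2 ± 0.2, adjusted p = 0.0124). HSPA1B, an inducible HSP70, was at 87.4, 56.3 and 69.7 FPKM in D-3 and 191, 135 and 143 FPKM in DP-3 (log2 fold change 1.35 ± 0.21, adjusted p = 0.0106). All 3 kept their call whichever library was left out, and lack of overlap was a condition of naming them. HSPA1B was not called in single fits of the 15 day 14 libraries or all 18 libraries (adjusted p of up to 0.158), and HSP90AA1 was not called by limma on log2(FPKM + 1), where its log2 difference was just below 1.

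HSPA1A, whose coding sequence is nearly that of HSPA1B, was at 0.989, 36.5 and 46.5 FPKM in D-3 and 124, 92.6 and 97.6 FPKM in DP-3, with D-3 replicate 1 far below the rest, and was not called (log2 fold change 2.12 ± 0.97, adjusted p = 0.173) except without D-3 replicate 1. Reads of HSPA1A and HSPA1B may have been split between them, which bears on the values of both. BAG3, HSPB1 and HSPH1 were upregulated as well, with log2 fold changes of 1.11, 1.02 and 1.09. BAG3 lost its call without D-3 replicate 3 or DP-3 replicate 3, HSPB1 without D-3 replicate 1 or 3 or DP-3 replicate 1 or 3, and HSPH1 without D-3 replicate 2 (0.96, below the fold change of 2). HSPA6, the most strictly inducible of the family, was at 2.88, 0.459 and 3.69 FPKM in D-3 and 0.74, 0.467 and 0.124 FPKM in DP-3 and was not called (log2 fold change -2.19 ± 0.81, adjusted p = 0.103). Without D-3 replicate 2 the list had 5 upregulated and 1 downregulated DEG, by DESeq2 it had 6 and 1, and by limma it had 3 upregulated DEGs at a pseudocount of 0.1 and 2 at 1.

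The units GAA, TTC and GAA of the heat shock element, in that order with 2 bases between neighbours and on either strand, stood before the start of HSPA6, HSPD1, HSP90AA1 and HSPA8, 4 of 11 members with an entry, against 0.557% of the 27305 genes. CRYAB had no entry. They stood before 1.41% of the upregulated, 0.544% of the downregulated and 0.462% of all genes tested with an entry. The pair of DEGs is shown with the matches in capitals, chr11:123062137-123062386 (minus strand) for HSPA8, which holds 2 matches, and chr14:102087045-102087294 (minus strand) for HSP90AA1, which holds 1.
HSPA8: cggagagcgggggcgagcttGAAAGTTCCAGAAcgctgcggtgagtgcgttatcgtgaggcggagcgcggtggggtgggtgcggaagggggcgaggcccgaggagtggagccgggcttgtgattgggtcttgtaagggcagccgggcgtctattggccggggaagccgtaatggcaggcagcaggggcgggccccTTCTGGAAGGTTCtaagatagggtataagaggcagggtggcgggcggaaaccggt
HSP90AA1: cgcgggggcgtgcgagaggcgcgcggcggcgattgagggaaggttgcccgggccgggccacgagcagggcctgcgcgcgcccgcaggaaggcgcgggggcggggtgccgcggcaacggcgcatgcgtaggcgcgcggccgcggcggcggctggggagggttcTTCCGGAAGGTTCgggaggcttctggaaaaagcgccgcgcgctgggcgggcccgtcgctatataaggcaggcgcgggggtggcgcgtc
HSPA6 and HSPD1 also hold the letters and were not called.

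YAP and TEAD activate genes of adhesion and growth when cells spread or are under tension. Of 23 targets, 2 were upregulated and 1 downregulated, with a median of 0.21. CCN2, the connective tissue growth factor, was at 23.9, 27 and 44.3 FPKM in D-3 and 127, 147 and 154 FPKM in DP-3 (log2 fold change 2.39 ± 0.26, adjusted p = 0.00417). NT5E, or CD73, was at 16.2, 28.5 and 18.3 FPKM in D-3 and 46.8, 56 and 42 FPKM in DP-3 (log2 fold change 1.41 ± 0.23, adjusted p = 0.0116), and lost its call without D-3 replicate 3 (adjusted p = 0.0541). GADD45A, a stress gene, was at 209.6, 116 and 134 FPKM in D-3 and 45.5, 48.7 and 29.8 FPKM in DP-3 (log2 fold change -1.68 ± 0.26, adjusted p = 0.0103). CCN2 and GADD45A kept their calls whichever library was left out, one in each direction.

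The core TEAD letters GGAATG, on either strand, stood before 9 of 17 targets with an entry, against 14.3% of the 27305 genes, 19.4% of the upregulated DEGs, 12.8% of the downregulated DEGs and 13.2% of all genes tested with an entry. CCN1, CRIM1, ARHGEF17, GADD45A, ASAP1 and DOCK5 had no entry. CCN2, the one DEG of the 9, holds 3 matches, shown in capitals at chr6:131951373-131951622 (minus strand).
CCN2: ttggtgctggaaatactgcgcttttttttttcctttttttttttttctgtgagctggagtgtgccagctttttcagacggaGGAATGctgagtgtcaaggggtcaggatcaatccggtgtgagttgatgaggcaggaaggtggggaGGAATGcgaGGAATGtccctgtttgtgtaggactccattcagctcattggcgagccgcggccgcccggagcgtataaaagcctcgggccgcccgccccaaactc
Neither AJUBA nor ANKRD1, which also hold the letters, was called.

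Of 11 genes of the EMT list, which mark epithelial or mesenchymal state, 2 were upregulated and none downregulated. PRRX1, a mesenchymal homeobox factor, was at 4.89, 7.59 and 4.47 FPKM in D-3 and 21.3, 17.9 and 22.4 FPKM in DP-3 (log2 fold change 2.08 ± 0.24, adjusted p = 0.00509). CDH11, the osteoblast cadherin, was at 11.2, 9.95 and 10.8 FPKM in D-3 and 36.5, 24.8 and 45.5 FPKM in DP-3 (log2 fold change 1.97 ± 0.25, adjusted p = 0.00627). VIM, the most abundant gene of the list, was at 626, 678 and 654 FPKM in D-3 and 844, 827 and 895 FPKM in DP-3 and missed the fold change of 2 (log2 fold change 0.61 ± 0.17, adjusted p = 0.0429). PDGFRA, a growth factor receptor of mesenchymal cells, was at 4.78, 5.34 and 4.96 FPKM in D-3 and 13.3, 10.1 and 13.8 FPKM in DP-3 (log2 fold change 1.52 ± 0.18, adjusted p = 0.00538). SOX9, the cartilage regulator, was at 11.4, 13.6 and 14.1 FPKM in D-3 and 19.1, 22.6 and 26.5 FPKM in DP-3 (log2 fold change 1.03 ± 0.18, adjusted p = 0.0142), and lost its call without D-3 replicate 1 or 3 or DP-3 replicate 3 (up to 0.0541), whereas COL9A1 was listed at 0.

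Matrix gene lists held DEGs in both directions. For comparison, 1.98% of all genes tested were upregulated and 7.15% downregulated, 9.12% in either direction. The share of DEGs was above that 9.12% in matrix proteases, collagens, matrix glycoproteins and integrins. It was below 9.12% in laminin and basement membrane genes, protease inhibitors and collagen processing enzymes. Of 14 matrix glycoproteins, 2 were upregulated and kept their call whichever library was left out. THBS1, which binds cells and activates latent TGF-beta, was at 20.7, 14.4 and 21.6 FPKM in D-3 and 44.3, 44.8 and 47.9 FPKM in DP-3 (log2 fold change 1.49 ± 0.19, adjusted p = 0.00645). POSTN, or periostin, was at 0.485, 0.41 and 0.502 FPKM in D-3 and 1.84, 1.52 and 2.07 FPKM in DP-3 (log2 fold change 2.17 ± 0.26, adjusted p = 0.00565), and was not called in single fits of 15 or 18 libraries.

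Of 30 matrix proteases, 4 were upregulated and 2 downregulated. ADAMTS1, a secreted protease of proteoglycans, was at 1.89, 3.53 and 1.87 FPKM in D-3 and 10.4, 9.57 and 10 FPKM in DP-3 (log2 fold change 2.26 ± 0.27, adjusted p = 0.00547). ADAMTS12 was at 7.31, 7.89 and 9.4 FPKM in D-3 and 18, 16.3 and 17.2 FPKM in DP-3 (log2 fold change 1.29 ± 0.15, adjusted p = 0.00561). The collagenase MMP13 was at 1.06, 2.87 and 2.31 FPKM in D-3 and 7.06, 3.94 and 7.37 FPKM in DP-3 (log2 fold change 1.78 ± 0.41, adjusted p = 0.0279), and lost its call without D-3 replicate 1 or 3 or DP-3 replicate 1 or 3 (up to 0.0886). MMP16 rose, with a log2 fold change of 1.07, and MMP3 and MMP15 fell, with -1.13 and -1.08. MMP16 kept its call whichever library was left out, but its log2 difference was below 1, and it was not called, by limma at either pseudocount (0.82 and 0.61), among genes of at least 1 FPKM in 3 libraries (0.96) or among protein-coding genes alone (0.99). ADAMTS12 was not called by limma on log2(FPKM + 1). MMP3 lost its call without D-3 replicate 3 or any DP-3 library (up to 0.0721), and MMP15 without those or D-3 replicate 1 (up to 0.0809). The number of downregulated proteases was therefore 0 to 2 over the fits without 1 library. The protease inhibitor list had no DEG among 8 by edgeR, DESeq2 or limma, with 4 at an unadjusted p below 0.05, but 2 upregulated and 1 downregulated DEG without D-3 replicate 2 and 1 upregulated DEG without DP-3 replicate 2. TIMP3 was at 580.4, 249 and 576 FPKM in D-3 and 254, 176 and 260.3 FPKM in DP-3 (log2 fold change -0.8 ± 0.33, adjusted p = 0.14).

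Of 25 collagens, 1 was upregulated and 3 downregulated. COL7A1, which anchors basement membranes, was at 3.69, 3.29 and 3.67 FPKM in D-3 and 1.19, 1.36 and 0.95 FPKM in DP-3 (log2 fold change -1.39 ± 0.17, adjusted p = 0.00568), the one call that held whichever library was left out. COL11A2 (-1.34) lost its call without replicate 1 or 3 of either group, COL8A2 (-1.93) without D-3 replicate 1 or 3 or any DP-3 library, and the fibrillar COL1A2 (1.08) without any D-3 library or DP-3 replicate 1 or 2 (adjusted p of up to 0.0774, 0.118 and 0.124). LAMB3, a chain of laminin 332 and the one DEG of 12 laminin and basement membrane genes, was at 87.4, 58.6 and 104 FPKM in D-3 and 32.2, 30.5 and 32.4 FPKM in DP-3 (log2 fold change -1.17 ± 0.22, adjusted p = 0.0151), and lost its call without D-3 replicate 1 or 3 or DP-3 replicate 1 or 2 (up to 0.0558). The integrins ITGA4 (1.59) and ITGA7 (-1.73), of 16 tested, also lost their calls with single libraries left out, ITGA4 without any but DP-3 replicate 3 and ITGA7 without D-3 replicate 1 or 3 or DP-3 replicate 1 or 3 (up to 0.138 and 0.084). Collagen processing enzymes had no DEG among 14 by edgeR, DESeq2 or limma, with 5 at an unadjusted p below 0.05. SERPINH1, the collagen chaperone, was at 105, 133 and 142 FPKM in D-3 and 123, 119 and 153 FPKM in DP-3.

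Of 10 osteoblast and bone matrix genes tested, 3 were upregulated and 1 downregulated. ANKH, which exports pyrophosphate, an inhibitor of mineral, was at 8.45, 8.96 and 8.98 FPKM in D-3 and 25.2, 16.3 and 20.1 FPKM in DP-3 (log2 fold change 1.44 ± 0.19, adjusted p = 0.00666). PHEX, a protease of bone matrix whose loss causes phosphate wasting, was at 2.62, 2.08 and 2.85 FPKM in D-3 and 0.473, 0.526 and 0.599 FPKM in DP-3 (log2 fold change -2.01 ± 0.24, adjusted p = 0.00547). Both held whichever library was left out, and ANKH was the one upregulated DEG of the list without any D-3 library or DP-3 replicate 3. ENPP1, which makes pyrophosphate outside the cell, was at 3.99, 3.64 and 4.37 FPKM in D-3 and 5.88, 6.88 and 14 FPKM in DP-3 (log2 fold change 1.4 ± 0.34, adjusted p = 0.0312), and lost its call without any D-3 library or DP-3 replicate 3 (up to 0.101). SPP1, or osteopontin, was at 0.117, 0.0997 and 0.114 FPKM in D-3 and 0.324, 0.312 and 1.37 FPKM in DP-3 (log2 fold change 2.78 ± 0.7, adjusted p = 0.0356), with the highest value in DP-3 replicate 3, and lost its call without any D-3 library or DP-3 replicate 1 or 3 (up to 0.11).

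Wnt signaling genes had 4 upregulated DEGs and 1 downregulated DEG of 15, with a median of 0.51. DKK1, a secreted Wnt inhibitor, was at 12.5, 23.6 and 13.9 FPKM in D-3 and 44.8, 36.9 and 45.3 FPKM in DP-3 (log2 fold change 1.57 ± 0.26, adjusted p = 0.0118), and lost its call without D-3 replicate 3 (adjusted p = 0.0545). The receptor FZD8 was at 10.1, 25 and 6.96 FPKM in D-3 and 43.5, 40.9 and 28.9 FPKM in DP-3 (log2 fold change 1.64 ± 0.43, adjusted p = 0.0401), and lost its call without D-3 replicate 1 or 3 or any DP-3 library (up to 0.135). TNFRSF19 was at 2.6, 2.28 and 2.45 FPKM in D-3 and 6.37, 4.53 and 4.94 FPKM in DP-3 (log2 fold change 1.33 ± 0.19, adjusted p = 0.00813) and held whichever library was left out, but not by limma on log2(FPKM + 1). WNT5A, a noncanonical ligand, had a log2 fold change of 1.05 and fell short of a fold change of 2 without DP-3 replicate 1 (0.96). DKK3 had -2.27, and lost its call without D-3 replicate 1 or 3 or DP-3 replicate 1 or 2 (up to 0.0932). The upregulated DEGs numbered 2 without D-3 replicate 3 or DP-3 replicate 1.

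BMP ligands are countered outside the cell by NOG. NOG was at 24.7, 21.4 and 34.8 FPKM in D-3 and 11.5, 11.1 and 7.53 FPKM in DP-3 (log2 fold change -1.22 ± 0.23, adjusted p = 0.0161), and lost its call without D-3 replicate 3 (-0.99, adjusted p = 0.0576). BMP4 was at 1.21, 0.637 and 0.731 FPKM in D-3 and 1.56, 1.7 and 2.27 FPKM in DP-3 (log2 fold change 1.33 ± 0.35, adjusted p = 0.0392), and lost its call without any 1 of the 6 libraries (up to 0.13). They were the DEGs of 16 BMP genes. In the TGF-beta and activin list of 16, PMEPA1, a feedback target of TGF-beta, was at 2.57, 2.58 and 2.31 FPKM in D-3 and 7.05, 7.04 and 3.84 FPKM in DP-3 (log2 fold change 1.47 ± 0.23, adjusted p = 0.0106), and was not called by limma on log2(FPKM + 1). LTBP1, which stores latent TGF-beta, had a log2 fold change of 1.06, and lost its call without D-3 replicate 1 or 3 or DP-3 replicate 3 (up to 0.0579).

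EGFR, the receptor of epidermal growth factor, was at 9.08, 8.61 and 6.72 FPKM in D-3 and 14.3, 16.2 and 17.4 FPKM in DP-3 (log2 fold change 1.2 ± 0.17, adjusted p = 0.00883), and was not called by limma at either pseudocount. Its relative ERBB3 had a log2 fold change of -3.0, and the ligand NRG1 1.34. ERBB3 lost its call without D-3 replicate 1 or 3 or DP-3 replicate 1 or 2, and NRG1 without D-3 replicate 1 or 3 or DP-3 replicate 2 or 3 (adjusted p of up to 0.0809 and 0.0805). The IGF system had no DEG among 7 by edgeR or DESeq2 and 1 downregulated DEG by limma, with 1 at an unadjusted p below 0.05. By edgeR without DP-3 replicate 1, it had 1 downregulated DEG. IGFBP4, which binds IGF, was at 57.8, 111 and 99.8 FPKM in D-3 and 86.1, 96.3 and 109 FPKM in DP-3.

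Several enzymes of lipid synthesis were upregulated. Of 13 fatty acid genes, 3 were upregulated. FASN, the fatty acid synthase, was at 8.94, 14.5 and 11.4 FPKM in D-3 and 24.3, 23.7 and 35.9 FPKM in DP-3 (log2 fold change 1.5 ± 0.26, adjusted p = 0.0129), and lost its call without D-3 replicate 3 (adjusted p = 0.0577). ACACA, which commits carbon to fatty acids, was at 3.94, 4.37 and 4.38 FPKM in D-3 and 6.77, 8.94 and 9.06 FPKM in DP-3 (log2 fold change 1.18 ± 0.17, adjusted p = 0.00833), and was not called by limma at either pseudocount. SCD, which desaturates fatty acids, was at 57.1, 35.5 and 44 FPKM in D-3 and 64, 96.2 and 138 FPKM in DP-3 (log2 fold change 1.36 ± 0.31, adjusted p = 0.0272), and lost its call without any D-3 library or DP-3 replicate 2 or 3 (up to 0.0978). Of 22 cholesterol synthesis genes, 20 had a fold change above zero, against 9772 of the 20682 genes tested, and 2 were upregulated. LSS had a log2 fold change of 1.05, and lost its call without D-3 replicate 1 or 3 or DP-3 replicate 3 (up to 0.0579).

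All 13 protein genes of the mitochondrial genome had a fold change above zero, against 9772 of the 20682 genes tested, and 2 were upregulated. MT-CO2, a subunit of cytochrome oxidase, was at 1741, 4199 and 2326 FPKM in D-3 and 4832, 5250.0 and 9222 FPKM in DP-3 (log2 fold change 1.46 ± 0.39, adjusted p = 0.0432), with the highest value in DP-3 replicate 3, the library with the high mitochondrial share. MT-CYB was at 1016, 1529 and 1239 FPKM in D-3 and 2288, 2373 and 4609 FPKM in DP-3 (log2 fold change 1.53 ± 0.33, adjusted p = 0.0237). Without D-3 replicate 1 or 3 neither was called (adjusted p of up to 0.148 and 0.0887), and MT-CO2 was not called without any 1 of the DP-3 libraries either. The list had 4 DEGs without D-3 replicate 2 and 1 without each DP-3 library, and its median was 0.48 without DP-3 replicate 3. By limma at either pseudocount the list had 0 DEGs, and by DESeq2 it had 9. The nuclear genes of the respiratory chain had a median of 0.05 and no DEG among 60 by edgeR, DESeq2 or limma, with 4 at an unadjusted p below 0.05. COX8A, the most abundant of them, was at 322, 478 and 362 FPKM in D-3 and 401, 412 and 281 FPKM in DP-3.

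Immediate early genes, which answer growth signals within minutes, split, with 4 of 27 upregulated and 5 downregulated. EGR1 was at 0.756, 3.19 and 0.623 FPKM in D-3 and 7.56, 6.24 and 11.5 FPKM in DP-3 (log2 fold change 2.7 ± 0.63, adjusted p = 0.029), and lost its call without D-3 replicate 1 or 3 or any DP-3 library (up to 0.0931). DUSP4, a phosphatase of ERK, had a log2 fold change of 1.14, and it and ATF3 were the 2 calls that held whichever library was left out, although DUSP4 was not called by limma at either pseudocount. EGR2 and PHLDA1 were the others upregulated, and JUND, IER3, DUSP5 and NR4A1 the others downregulated. The list had 1 upregulated and 1 downregulated DEG without D-3 replicate 1 and again without D-3 replicate 3. Without DP-3 replicate 1, 2 or 3 it had 4, 2 and 2 upregulated and 1, 1 and 2 downregulated DEGs.

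The single largest increase among genes above 1 FPKM with no overlap, after PI15, was in AHNAK, a giant scaffold protein, at chr11:62433542-62556235 of GRCh38 (minus strand). It was at 6.45, 4.09 and 4.55 FPKM in D-3 and 82.7, 91.3 and 73.8 FPKM in DP-3 (log2 fold change 4.25 ± 0.22, adjusted p = 0.000854), the smallest adjusted p of all genes. AHNAK also differed widely between libraries of the same group elsewhere in the series. It was at 69.6, 3.49 and 90.2 FPKM in D-2, at 126, 5.5 and 126 FPKM in DP-3 on day 1, at 5.13, 5.01 and 98.5 FPKM in IT and at 129.7, 5.84 and 131 FPKM in FIT. The 3 libraries of day 1 differed 22.6-fold in AHNAK, a spread above 4-fold that 1.62% of the genes tested with at least 1 FPKM on that day showed. AHNAK was therefore high in some libraries and low in others within 4 of the 6 groups, and its separation here rests on 3 libraries of each kind. Its paralog AHNAK2 was at 35.4, 15.2 and 26 FPKM in D-3 and 7.67, 10.9 and 9.42 FPKM in DP-3 (log2 fold change -1.23 ± 0.29, adjusted p = 0.0304), the opposite direction, and lost its call without D-3 replicate 1 or 3 or any DP-3 library (up to 0.0947).

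Other large increases were in genes of low level. PI15, a secreted protein, was at 0.0634, 0.0412 and 0.0898 FPKM in D-3 and 0.222, 0.774 and 2.4 FPKM in DP-3 (log2 fold change 4.36 ± 0.86, adjusted p = 0.0183). It lost its call without D-3 replicate 1 or 3 (up to 0.0731). All its D-3 values lay under 0.1 FPKM, so PI15 passed the filter through DP-3 alone and the size of its fold is uncertain. PDE3A, which breaks down cyclic AMP, was at 0.321, 0.311 and 0.176 FPKM in D-3 and 2.01, 1.35 and 1.1 FPKM in DP-3 (log2 fold change 2.68 ± 0.32, adjusted p = 0.00561). The adrenergic receptor ADRA1B was at 0.321, 0.416 and 0.197 FPKM in D-3 and 1.91, 0.787 and 1.6 FPKM in DP-3 (log2 fold change 2.42 ± 0.47, adjusted p = 0.0173), and lost its call without D-3 replicate 1 or 3 or DP-3 replicate 1 or 3 (up to 0.0653). PDE3A held its call whichever library was left out, but not by limma on log2(FPKM + 1).

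Ribosomal proteins, actin and SRF targets and metallothioneins had no DEG by edgeR or DESeq2, with 3 of 79, 5 of 18 and 2 of 4 genes at an unadjusted p below 0.05. By limma on log2(FPKM + 0.1), 1 metallothionein was downregulated. Among actin and SRF targets, 1 was upregulated without D-3 replicate 3 and 1 without DP-3 replicate 1. The 79 ribosomal protein genes had a median of -0.15, with RPS12 at 1109, 942 and 1043 FPKM in D-3 and 643, 769 and 282 FPKM in DP-3 (log2 fold change -0.67 ± 0.31, adjusted p = 0.172). Of 18 actin and SRF targets the most abundant, ACTB, was at 538, 567 and 673 FPKM in D-3 and 732, 831 and 1203 FPKM in DP-3 and missed the fold change of 2 (log2 fold change 0.87 ± 0.25, adjusted p = 0.0496). MT2A, which binds zinc, was at 285, 372 and 367 FPKM in D-3 and 564, 422 and 399 FPKM in DP-3 (log2 fold change 0.65 ± 0.19, adjusted p = 0.0516). MT1B, MT1G, MT1H, MT1M and MT3 were not analysed here.

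The levels of these genes in the other groups place the contrast. DDIT3 had a mean of 107 FPKM in D-3 and 7.21 FPKM in DP-3, against 4.62 FPKM in D-2, 26 FPKM in DP-3 on day 1, 35 FPKM in IT and 9.3 FPKM in FIT. Its D-3 libraries were the 3 highest of the series. SAA1 had means of 0.463 FPKM in D-2, 0.529 FPKM on day 1 and 0.472 FPKM in FIT, close to DP-3, and 8.79 ± 6.39 (SD, n = 3) FPKM in IT.

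HLA-B was low in D-2, with a mean of 25.3 FPKM, and on day 1, with 35.6 FPKM, and high in IT and FIT, with 185 and 182 FPKM. LINC02154 had means of 0.217 FPKM in D-2, 1.45 FPKM on day 1, 6.8 FPKM in IT and 0.335 FPKM in FIT. FOXM1 had a mean of 54.9 FPKM in D-2, above DP-3, and of 19.5 FPKM on day 1. CCN2 was highest in D-2, with a mean of 217 FPKM. These levels were not tested between the groups.

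**Figure D5:**
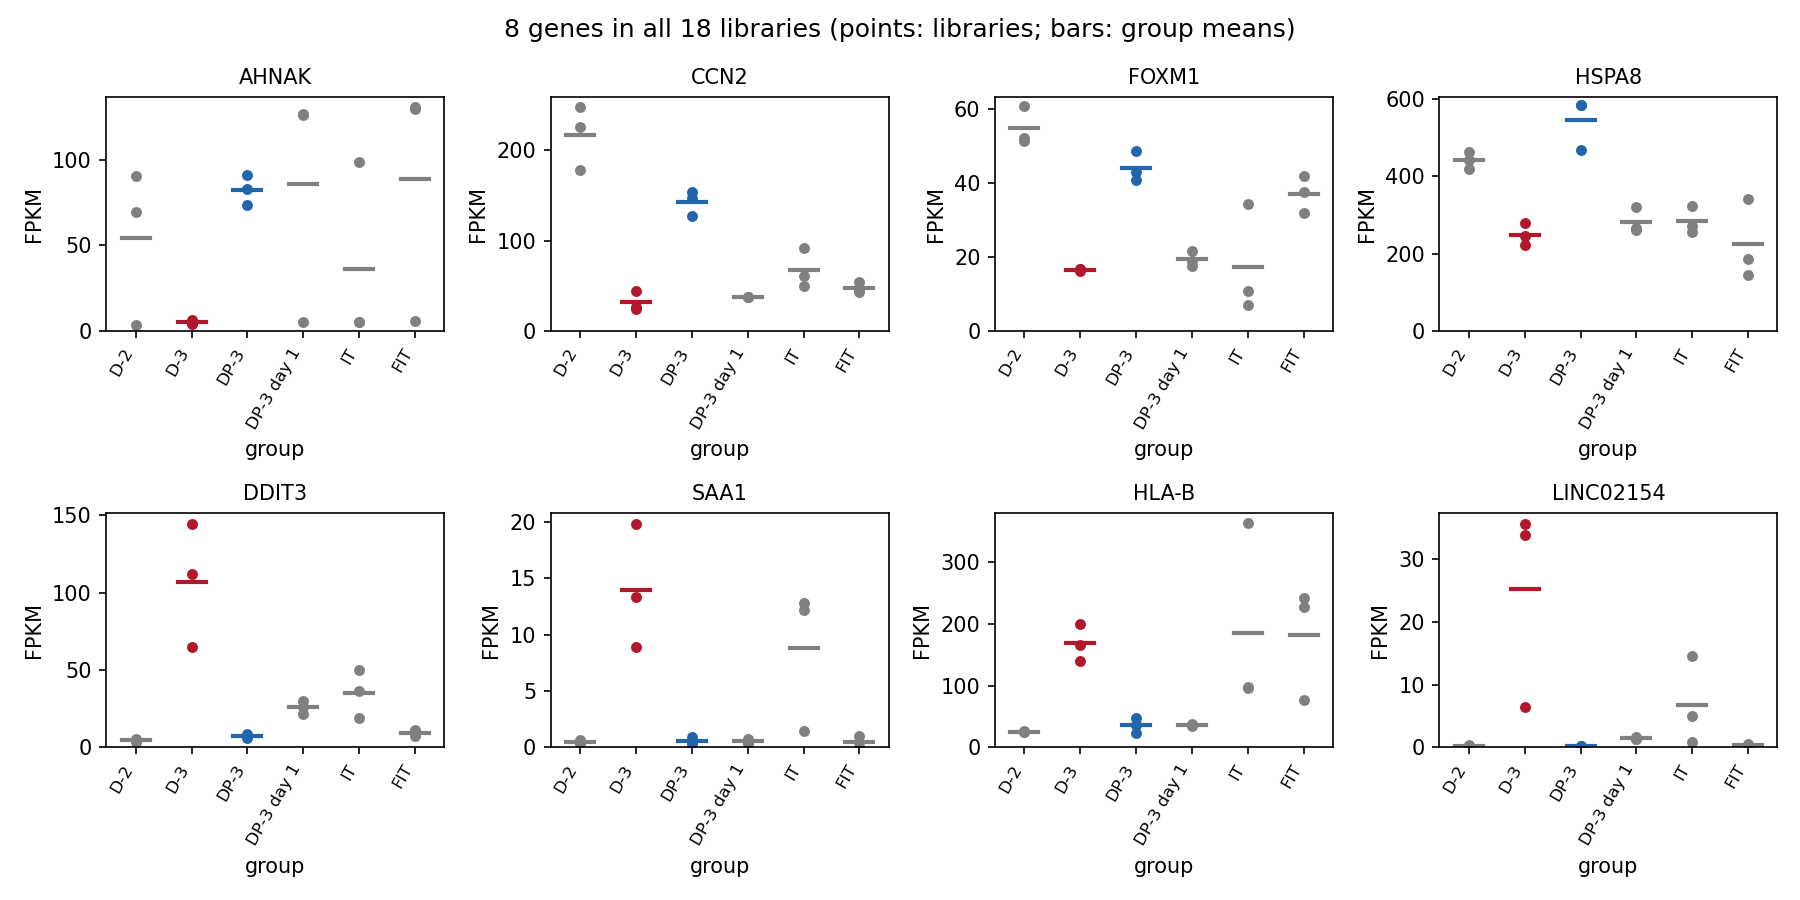
FPKM (y axes, from zero) of 8 genes in the 6 groups of the series (x axes), with 1 point per library and bars at group means, n = 3 each. D-3 is red, DP-3 blue and the other groups grey; AHNAK shows high and low libraries within 4 of the groups, while DDIT3 is high in all D-3 libraries.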

How the data were processed

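RNA of 18 libraries was measured, and the 6 libraries of D-3 and DP-3 were compared. Groups came from the sample labels. Per the submitters' processing notes, the tools were cutadapt 1.9, HISAT2 2.0.4 and StringTie 1.3.4d, with edgeR and DESeq2 also named. The genome build and annotation are not given in the sources used here, and gene positions overlapped those of GENCODE 29 on GRCh38 for 99.98% of the 48223 genes found there. The authors deposited FPKM and whole-number counts per gene. How the deposited counts were made is not stated, and multiples of 4 were 35.3% of the low counts, so they were treated as estimated counts. The kit marks strand, but whether counting used strand is not given.

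Counts were fitted with edgeR 4.0.16 (R 4.3.3) by the quasi-likelihood test after TMM scaling, without a replicate block, on the 20682 genes with at least 0.1 FPKM in at least 3 of the 6 libraries, with Benjamini-Hochberg adjustment over all of them. A fold of a gene at or below 12 counts in all libraries of a group was given as a bound against that limit. An exact permutation test of 3 against 3 libraries cannot go below p = 0.1. Alternatives used DESeq2 1.42.0, limma 3.58.1 on log2(FPKM + 0.1) and log2(FPKM + 1), other filters, scalings and sample sets, and each library left out. The procedure was tested on simulated data. No pair of libraries held identical values.

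Genes named were the 6 DEGs in each direction with the largest fold change, the 4 with the largest difference in FPKM and up to 3 per gene list, among DEGs with no overlap that were above 0 FPKM everywhere in the 6 and averaged at least 1 FPKM in a group, or the most abundant member of a list with no DEG. That gave 83 genes, to which 48 further DEGs of the lists and 14 genes chosen after their values were seen (LCN2, IL6, ATF4, CXCL8, HLA-DRB1, MIR22HG, AHNAK2, TXNIP, CTH, ISY1-RAB43, CEBPG, HLA-DPA1, HSPA1A and VIM) were added. The uncalled list members named for contrast were also chosen after their values were seen. Members and gene lists were chosen with earlier results of these data known. Promoter sequences were read from RefSeq (GRCh38.p14). Some genes that the rule names are not reported here.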

Additional observations from a re-analysis of the deposited data

How the results depend on the processing

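With 3 libraries per group, the coefficient of variation between libraries of a group was 35.5% by edgeR's fit. Each left-out library mattered: DEGs ranged from 546 to 2594, upregulated DEGs from 152 to 819 and downregulated DEGs from 394 to 1775. By limma on log2(FPKM + 0.1) there were 216 upregulated and 2296 downregulated DEGs, and on log2(FPKM + 1) 769 DEGs, 89 upregulated and 680 downregulated. Requiring 1 FPKM in 3 libraries left 1242 DEGs, 262 upregulated and 980 downregulated, of 12456 genes. With replicate block there were 1019 DEGs, 304 upregulated and 715 downregulated. The libraries share only a number, since deviations of same-numbered libraries correlated at -0.0287, -0.0191 and -0.00782, so the block is given only here. With DESeq2 (2765 DEGs), edgeR without its legacy setting (2397), no filter (1900), median-of-ratios scaling (1902), scaling without mitochondrial genes (1903), protein-coding genes (1355), all 18 libraries (2173) or the 15 day 14 libraries (1863, chosen after seeing the data), the number stayed within 1.5 times the 1887. COX8A, not called, turned to -0.087 by limma at either pseudocount and to -0.0075 without D-3 replicate 1, and MIR22HG, not called, lay between -0.63 and 0.30 with single libraries left out, above zero without D-3 replicate 2; the cause was not tested. Over the 145 named genes, 237 calls were lost and 2 gained in the fits without 1 library, and 174 were lost in the others. Counts at or below 12 limit the folds of low genes.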
